A study of Mus musculus with 8 samples.

Results

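The activator protein 1 (AP-1) genes described here are Jun, Junb and Jund of the Jun family and Fos, Fosb, Fosl1 and Fosl2 of the Fos family, along with 3 related genes, Atf3, Batf and Maff. They were chosen by symbol as 10 of the 24421 genes in the counts, and all 10 were among the 14606 genes that passed the filter on low counts and were tested. Every one of the 10 was higher after ischemia-reperfusion injury (IRI) than after sham surgery. The range ran from Jund, 2.62-fold higher, to Fosl1, 361-fold higher. Fosl1 and Batf passed the filter only through their IRI libraries, so its choice fixed their direction.

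AP-1 is a pair of proteins that join through a leucine zipper, a coil of regularly spaced leucines, and grip DNA with the basic stretch beside it. Jun proteins can pair with each other or with Fos proteins, whereas Fos proteins need a Jun partner. Many of these genes are immediate early genes, switched on from ready-made factors when growth factors, cytokines, oxidants or physical injury reach a cell, and in the kidney Atf3 and Jun are known as early genes of acute injury. Atf3 and Batf pair with Jun proteins through the same kind of zipper and can hold target genes back, and Maff is a small Maf protein that binds DNA but has no activation domain of its own.

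RNA on ribosomes was purified from whole kidneys of HoxB7-Cre; Gt(ROSA)26Sor-mCherry-Rpl10a mice (RiboTRAP), in which Cre under the HoxB7 promoter places a tagged ribosomal protein in the collecting duct lineage. Both groups carried the same alleles and were male mice of 10 to 16 weeks. In the IRI group (n = 4) the renal artery was clamped for 30 min and kidneys were taken 9 h later, and the sham group (n = 4) had surgery without clamping. Messages of cells outside the lineage can enter such a pulldown, and in bulk RNA fewer cells of a type and less RNA per cell cannot be told apart.

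Genes of the family are often described by the elements near their start sites, so these were read from RefSeq promoter windows (GRCm38.p6, from 250 bases before to 50 after the start) that matched 9 of the 10 genes. The stretches below end at or just before the start and hold the motif nearest to it in the Fos, Fosb, Jun and Junb promoters, either the element core TGACG or its relative TGACATCA, and in the Maff window with the full element TGACGTCA. Capitals mark that motif, and each sequence reads 5′ to 3′ on the strand of its gene.
Fos, chr12:85473770-85473889, plus strand: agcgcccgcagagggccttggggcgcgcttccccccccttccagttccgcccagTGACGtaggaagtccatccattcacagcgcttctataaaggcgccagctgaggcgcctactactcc
Fosb, chr7:19310052-19310165, minus strand: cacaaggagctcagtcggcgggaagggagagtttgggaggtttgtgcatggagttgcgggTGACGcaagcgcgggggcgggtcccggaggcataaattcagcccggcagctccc
Jun, chr4:95052223-95052342, minus strand: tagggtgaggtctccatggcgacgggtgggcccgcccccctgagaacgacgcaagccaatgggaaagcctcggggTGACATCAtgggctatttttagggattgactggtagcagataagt
Junb, chr8:84978749-84978868, minus strand: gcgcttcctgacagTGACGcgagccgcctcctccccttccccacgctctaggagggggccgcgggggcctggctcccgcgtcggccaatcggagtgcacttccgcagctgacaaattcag
Maff, chr15:79347400-79347519, plus strand: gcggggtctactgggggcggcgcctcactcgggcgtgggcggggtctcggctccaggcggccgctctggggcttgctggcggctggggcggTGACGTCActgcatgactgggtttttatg

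Both strands of each window were searched. Bases more than 250 before the start were not, so an absence holds for the window only. The AP-1 site TGANTCA was in none of the windows of these 9 genes and in 7.81% of all 32851 RefSeq windows. The CArG box, the element of serum response factor, was likewise in none of the windows of these genes and in 1.63% of all. The RefSeq start need not be the gene start given below. In Jund it follows base 70697738, ahead of the gene start at 70698949. The Atf3 window, 191183284 to 191183583 on the minus strand, lies inside the gene, whose start on that strand is at 191218039. The Maff stretch shown above, 79347400 to 79347519, lies past the gene start at 79346621. The stretch just before it in Fosl2 lies within annotated exons. The cAMP response element TGACGTCA, a palindrome, was in 1 window of Maff, from -29 to -22 of the start, and in 1.79% of all. Its core TGACG, which also lies inside that palindrome, was found in Fos (at -66 and -129), Fosb (-60), Junb (-106), Atf3 (-7), Batf (-98) and Maff, and in 20.8% of all windows. TGACATCA was in Jun and in another window of Maff, from -45 to -38 in both, and in 3.62% of all. The last 2 motifs were chosen after the promoters had been seen, and a match is a run of letters, not a measured binding site.

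Raw counts per gene were scaled by TMM, which corrects library size for a few abundant genes, to CPM (counts divided by a scaled library size and put on one common total), given as mean ± SD over n = 4 mice. Totals in genes ran from 13518005 to 27496808 per IRI library and from 25210299 to 29285812 per sham library. Tests are edgeR's quasi-likelihood test over all 14606 genes at an adjusted p (Benjamini-Hochberg) below 0.01, and standard errors (SE) of log2 fold changes are from limma-voom. Of all tested genes 25.1% passed as higher after IRI and 24.6% as lower, and their median log2 fold change was -0.01. All 10 AP-1 and related genes passed as higher, and in all 10 every IRI library lay above every sham library, as it did in 28.8% of tested genes. Of the 10, Fosl1 and Batf passed the filter on low counts only through their IRI libraries, which fixed their direction. The other 8 had at least 10 counts in every sham library.

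Markers of the labelled cells were present throughout, but lower after IRI. The 10 principal cell markers summed to 1881 to 3522 CPM per IRI library and 11557 to 15049 CPM per sham library, and all 10 were lower. The 8 intercalated cell markers, also of the collecting duct, summed to 862 to 1404 CPM and 3230 to 3996 CPM, and all 8 were lower. The 8 proximal tubule markers summed to 6241 to 12066 CPM after IRI and 4743 to 7674 CPM in sham, with 4 higher. Markers of endothelium summed to 275 to 532 CPM and 136 to 194 CPM, with 5 of 7 higher. Markers of neutrophils summed to 53.9 to 156 CPM against 2.37 to 5.26 CPM, with all 7 that were tested higher. Several had few sham counts, such as Retnlg with 3, 4, 10 and 5 in sham replicates 1 to 4. Such genes passed the filter on low counts only through their IRI libraries, so they lean to higher. Camp and Ngp, which mark neutrophil granules, had 0 counts in every sham library. Camp was not tested and had only 2, 1, 11 and 0 counts in IRI replicates 1 to 4. The share of reads with no unique alignment was 29.5% to 34.3% after IRI and 20.9% to 22.8% in sham. Their part in the changes below was not tested.

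**Figure D1:**
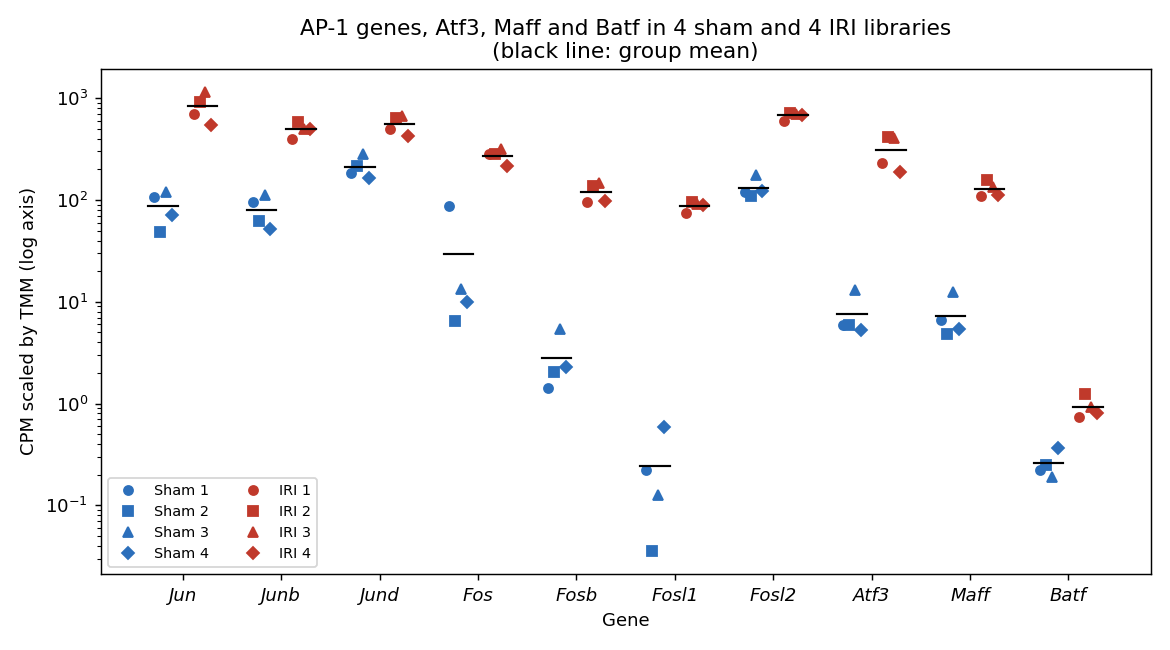
TMM-scaled CPM on a log axis for each of the 10 genes in 4 sham (blue) and 4 IRI (red) libraries, with the group mean as a black line. No IRI point lies at or below a sham point of the same gene, and Fos in sham replicate 1, at 87.2 CPM, stands apart from the other sham libraries.

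The Jun family was the most abundant part of AP-1 in both groups. Jun, the founding member and a strong activator (chromosome 4, 95049034 to 95052222, a single exon in GRCm38), was at 706, 919, 1165 and 542 CPM in IRI replicates 1 to 4. In sham replicates 1 to 4 it was at 108, 48.6, 119.7 and 70.6 CPM. The lowest IRI library was thus several times the highest sham library, although the IRI libraries themselves differed from one another by a factor of 2.15. The means were 833 ± 269.9 and 86.6 ± 32.8 CPM, a 9.61-fold rise (log2 fold change 3.27 ± 0.33 SE, adjusted p in edgeR = 3.69e-05).

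Junb (chromosome 8, 84974484 to 84978718) has the same kind of zipper as Jun but activates more weakly and can act against it. It read 401, 591, 495 and 501 CPM after IRI and 95.8, 61.7, 111 and 51.7 CPM in sham. The groups were well separated and the sham spread was the wider in proportion. The rise was 6.20-fold (497 ± 77.5 against 80.1 ± 28.0 CPM, log2 fold change 2.63 ± 0.25 SE, adjusted p in edgeR = 2.32e-05). Exons of Prdx2, a peroxiredoxin on the other strand, cover 7.52% of the exon bases of Junb, and Prdx2 fell by 0.65 on the log2 scale (SE 0.08, adjusted p in edgeR = 8.97e-05).

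Jund, the Jun protein that many resting cells already make (chromosome 8, 70698949 to 70700616, a single exon), was at 494, 643, 672 and 427 CPM after IRI and at 185, 218, 284 and 166 CPM in sham. Its highest sham and lowest IRI libraries stood closer together than those of Jun or Junb. It changed least of the 10, 2.62-fold (559 ± 118 against 213 ± 51.9 CPM, log2 fold change 1.39 ± 0.20 SE, adjusted p in edgeR = 0.000274). An antisense transcript, Gm11175, covers 52.6% of its exon bases, and Junos, an antisense transcript of Jun, covers 7.28% of those of Jun. Gm11175 and Junos are not among the genes of the counts. No source used here gives the strand setting of the counting, and without it reads of such partners cannot be told apart.

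Within the Fos family the genes with the lowest sham levels had the largest folds. Fosl1, which encodes Fra-1, a Fos protein without the strong activation domain of Fos (chromosome 19, 5447547 to 5455946), was at 75.3, 96.1, 91.3 and 89.8 CPM after IRI. In sham it was at 0.224, 0.0354, 0.127 and 0.591 CPM, which were 6, 1, 4 and 16 counts against 1923, 1234, 1465 and 1893 counts after IRI. It was therefore near the lower end of detection in every sham library and at a nearly uniform, clear level in every IRI library. Such a gene passed the filter on low counts only through its IRI libraries, so it had to differ. The rise was 361-fold (log2 fold change 8.50 ± 0.53 SE, adjusted p in edgeR = 8.59e-07), and it ranked 8 among all 14606 log2 fold changes. The ratio of the summed counts, 6515 to 27, was 363 with an exact 95% interval of 249 to 552, which covers counting error only. Without sham replicate 4 the fold was 656.

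Fosl1 shares genome sequence with a neighbour. Exons of Ccdc85b, a coiled-coil gene on the opposite strand, cover 57.2% of the exon bases of Fosl1. Ccdc85b had 13.9 ± 3.12 CPM in the IRI group against 14.6 ± 1.51 CPM in the sham group (log2 fold change -0.08 ± 0.15 SE, adjusted p in edgeR = 0.697).

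Fosb, a Fos protein known for long-lived short forms in the brain (chromosome 7, 19302696 to 19310051), was at 95.9, 136, 147 and 98.3 CPM after IRI. In sham it was at 1.42, 2.05, 5.38 and 2.29 CPM. Sham replicate 3 was the highest of its group and still far below each IRI library. The rise was 42.2-fold (119 ± 26.0 against 2.79 ± 1.77 CPM, log2 fold change 5.399 ± 0.36 SE, adjusted p in edgeR = 5.19e-06), which ranked 48.

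Fos, the classical immediate early gene, whose message is very short-lived (chromosome 12, 85473890 to 85477273), read 280.3, 282, 318 and 214 CPM after IRI. In sham it read 87.2, 6.51, 13.3 and 9.94 CPM. Sham replicate 1 was thus 6.56 times the next sham library, while the IRI libraries varied little. The rise was 9.37-fold (274 ± 43.4 against 29.3 ± 38.8 CPM, log2 fold change 3.23 ± 0.63 SE, adjusted p in edgeR = 0.00524). Fos was the only one of the 10 whose call did not hold when single libraries were left out: the adjusted p in edgeR was 0.0107, 0.0108 and 0.012 without IRI replicate 1, 2 or 3, and 0.0155 and 0.0137 without sham replicate 3 or 4. Without sham replicate 1 the log2 fold change was 4.77 (edgeR adjusted p = 1.2e-05).

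Fosl2, which encodes Fra-2 (chromosome 5, 32135801 to 32157842), had the highest counts of the Fos family in both groups. It read 604, 723, 701 and 691 CPM after IRI and 119.7, 109, 178 and 122 CPM in sham, with narrow ranges on both sides. The rise of 5.14-fold was the smallest in the family and had the smallest standard error of the 10 genes (679.8 ± 52.0 against 132 ± 30.8 CPM, log2 fold change 2.36 ± 0.15 SE, adjusted p in edgeR = 3.78e-06).

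**Figure D2:**
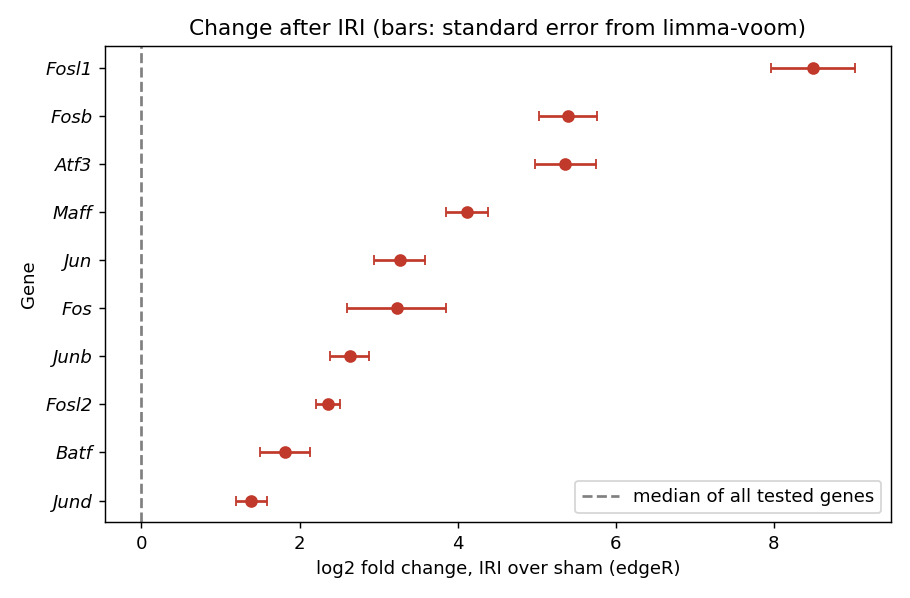
Log2 fold change of IRI over sham from edgeR for the 10 genes, with bars of 1 standard error from limma-voom on each side and a dashed line at the median of all tested genes. The values run from 1.39 for Jund to 8.50 for Fosl1, and Fos has the longest bar (0.63); its limma-voom estimate was 4.05.

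Of the related genes, Atf3, a stress-induced factor of the ATF/CREB group that represses as a pair with itself (chromosome 1, 191170296 to 191218039), read 231, 421, 410.3 and 189 CPM after IRI. In sham it read 5.94, 5.95, 13.02 and 5.32 CPM. IRI replicates 2 and 3 were higher than 1 and 4, and sham replicate 3 was higher than the other sham libraries, which lay close together. The rise was 41.2-fold (313 ± 119.98 against 7.56 ± 3.65 CPM, log2 fold change 5.36 ± 0.38 SE, adjusted p in edgeR = 7.13e-06), and it ranked 50. The summed neutrophil markers in the same libraries were 53.9, 146, 156 and 77.0 CPM after IRI and 3.32, 2.37, 5.26 and 4.36 CPM in sham, so they too were highest in IRI replicates 2 and 3 and in sham replicate 3. The same libraries were also the highest for Jun, Jund, Fosb, Fosl2 and Maff. IRI replicates 2 and 3 also had the lowest principal cell sums of their group (1881 and 1996 CPM) and the highest endothelial sums (532 and 452 CPM). Their gene totals were the smallest. Sham replicate 3 went the other way, with the lowest endothelial sum of its group (136 CPM) and the largest gene total. The part of neutrophils, other cells or depth in the values of Atf3 and these genes was not tested.

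Maff, which as a small Maf protein pairs with NF-E2-related and Bach proteins (chromosome 15, 79346621 to 79359076), was at 109, 157, 135 and 111 CPM after IRI and at 6.61, 4.81, 12.5 and 5.43 CPM in sham. As for Fosb and Atf3, sham replicate 3 was the highest of its group. The rise was 17.4-fold (128 ± 22.8 against 7.33 ± 3.51 CPM, log2 fold change 4.12 ± 0.26 SE, adjusted p in edgeR = 5.85e-06).

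Batf, a zipper protein best known from lymphocytes and dendritic cells (chromosome 12, 85686669 to 85709087), was scarce in both groups. It had 19, 16, 15 and 17 counts after IRI and 6, 7, 6 and 10 counts in sham, means of 0.933 ± 0.223 and 0.258 ± 0.0782 CPM. The groups did not overlap in CPM, but like Fosl1 it passed the filter only through its IRI libraries. The fold was 3.52 (log2 fold change 1.82 ± 0.31 SE, adjusted p in edgeR = 0.000813), and the ratio of summed counts was 3.48 (exact 95% interval 2.22 to 5.58 from counting error). Markers of lymphocytes summed to 3.35 to 5.64 CPM after IRI and 3.96 to 5.64 CPM in sham.

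Levels of different genes can be compared only per length, here as CPM per kb of exon. The whole exon length was used, although genes on the other strand cover 57.2% of that of Fosl1 and 52.6% of that of Jund. How reads there were counted is not known, so the levels and places of Fosl1 and Jund in the order are not settled. In sham, Jund was the most abundant of the 10 at 128 ± 31.1 CPM per kb, above every other gene in all 4 libraries, followed by Junb (34.8 ± 12.2) and Jun (27.2 ± 10.3), whose ranges overlapped. Fosl2 (13.7 ± 3.18) and Fos (12.4 ± 16.5) came next, and their ranges overlapped. Without sham replicate 1 Fos was at 4.22 ± 1.44 CPM per kb, below Fosl2 and overlapping Atf3. Atf3 and Maff were at 3.51 ± 1.70 and 2.83 ± 1.35 CPM per kb, and the range of Atf3 overlapped that of Fos with or without that library. Fosb, Batf and Fosl1 were below 1, down to 0.120 ± 0.120 CPM per kb for Fosl1.

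After IRI the order of the Jun genes was Jund (335 ± 70.5 CPM per kb), Jun (261 ± 84.6) and Junb (216 ± 33.7), with ranges that overlapped from one to the next. Within a library Jund was above Jun and Junb above Atf3 (145 ± 55.7) in all 4, although the ranges overlapped. The range of Atf3 also overlapped that of Fos (116 ± 18.4), and Atf3 was the higher in 2 of 4 libraries, so these neighbours did not differ beyond their spread. Fosl2 (70.2 ± 5.37) was below Fos in every library. Maff (49.3 ± 8.78) and Fosl1 (43.3 ± 4.40) overlapped, Fosb stood lower at 19.1 ± 4.16, and Batf was last at 0.663 ± 0.159. The highest mean was 1063 times the lowest (Fosl1) in sham and 505 times the lowest (Batf) after IRI. Without Batf the ratio after IRI was 17.5, and that in sham was still 1063. Both lowest genes, Fosl1 in sham and Batf after IRI, passed the filter only through IRI.

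The make-up of both families also shifted, given here as shares of a family's summed CPM per kb, with no test. The limit on the levels of Fosl1 and Jund per length applies to these shares too. Jund made up 59.5%, 75.6%, 66.5% and 69.0% of the Jun family in sham replicates 1 to 4 and 42.8%, 41.4%, 41.0% and 39.8% in IRI replicates 1 to 4. The groups did not overlap, and the share of Jun moved the other way, from 14.2% ± 3.90 in sham to 31.6% ± 4.42 after IRI. The share of Junb overlapped between the groups (18.1% ± 3.24 and 27.1% ± 5.05). The whole Jun family stood at 190 ± 47.6 CPM per kb in sham and 812 ± 169 CPM per kb after IRI.

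In the Fos family, Fosl1 went from 0.563% ± 0.733 of the family in sham to 17.5% ± 1.83 after IRI, and Fosb from 2.07% ± 1.24 to 7.61% ± 0.936, both without overlap. The sham share of Fosl1 was 0.197% without sham replicate 4, which held 16 of its 27 sham counts, and the filter had fixed its direction. Fosl2 made up 78.4%, 73.6% and 72.1% in sham replicates 2, 3 and 4 but 24.8% in sham replicate 1, where Fos made up 74.5%. After IRI, Fosl2 was at 26.2% to 32.1% and Fos at 41.0% to 50.9%. The Fosl2 and Fos shares therefore overlapped between the groups through sham replicate 1. The whole family was at 26.7 ± 16.04 CPM per kb in sham and 249 ± 25.1 CPM per kb after IRI. These shares depend on the exon length used: with counts not divided by length, Fosl2 was 58.7% and Fosl1 7.59% of the family after IRI.

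**Figure D3:**
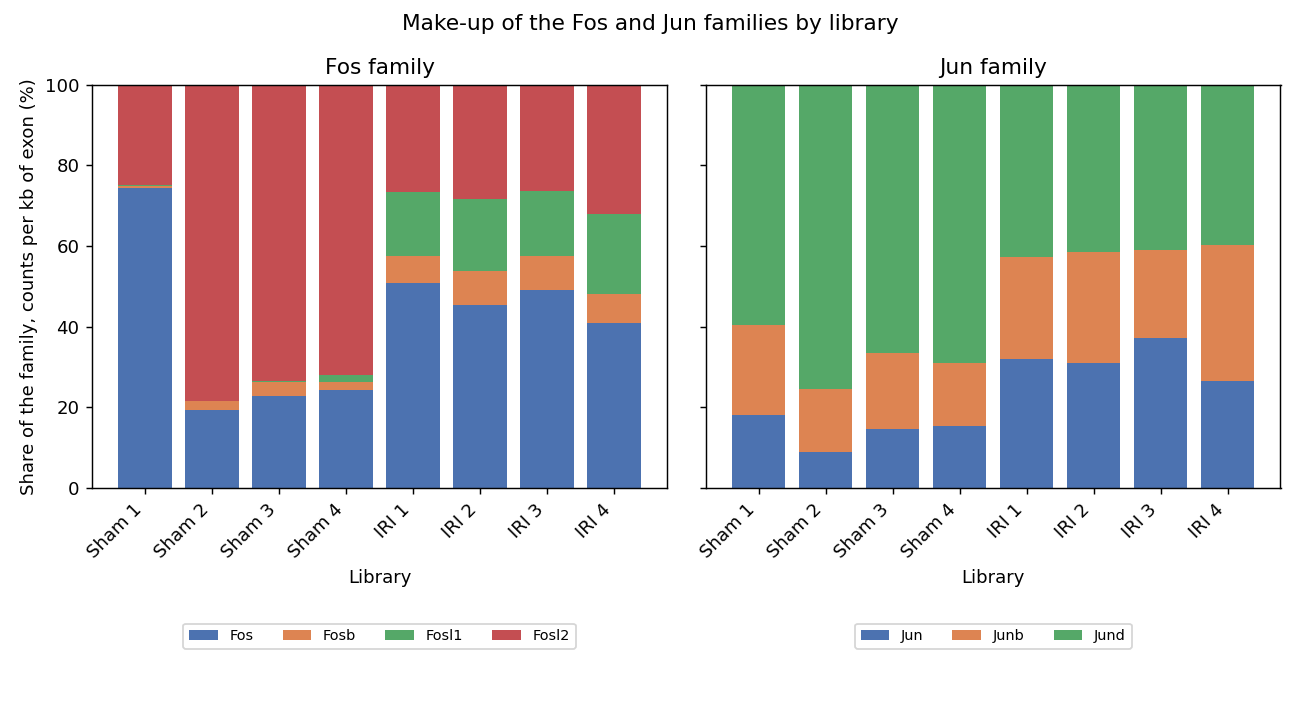
Share of each gene in the summed counts per kb of exon of its family, in percent, stacked for each of the 4 sham and 4 IRI libraries. Jund takes 59.5% to 75.6% of the Jun family in sham and 39.8% to 42.8% after IRI, and sham replicate 1 differs from the other sham libraries in the Fos family, with Fos at 74.5%.

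After each library's log2 CPM was set against its group mean, Pearson's r over the 8 libraries had a median of 0.48 over the 45 pairs of genes, with 13 pairs over 0.7 and 15 below 0. Over the 4 IRI libraries the median was 0.77, with 28 pairs over 0.7 and 3 below 0, none under -0.04. Over the 4 sham libraries, where Fosl1 and Batf had few counts and Fos was high in replicate 1, the median was 0.37, with 15 pairs over 0.7 and 18 below 0. These are descriptions, since the libraries of a pair share depth and tissue. The closest pairs were Jund with Atf3 (r = 0.95) and Fosl2 with Maff (r = 0.94), while Fos with Fosb had r = 0.70 over the IRI libraries and -0.45 over the sham libraries. Sham replicate 3 was the highest sham library for 7 of the 10 genes, sham replicate 1 for Fos, and sham replicate 4 for Fosl1 and Batf. Among IRI libraries, replicate 2 was the highest for 6 genes and replicate 3 for 4.

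**Figure D4:**
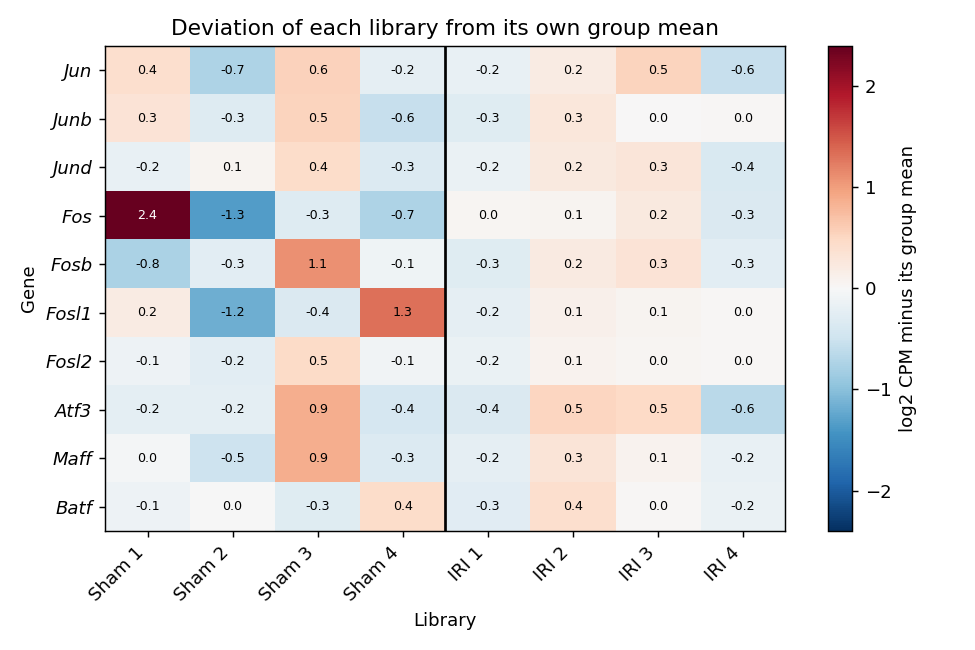
Difference of each library's log2 CPM from the mean of its own group for the 10 genes, with sham libraries left of the black line and IRI libraries right of it. Fos in sham replicate 1 (2.39) is the largest deviation, and sham replicate 3 is above its group mean for Jun, Junb, Jund, Fosb, Fosl2, Atf3 and Maff.

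Genes with a similar pattern were sought for Atf3 and Fosl1 among 11287 tested genes with a mean of at least 5 CPM, by Pearson's r of log2 CPM over the 8 libraries. The closest to Atf3 was Spry2, an inhibitor of receptor tyrosine kinase signaling (r = 0.999), followed by Apln, the apelin precursor, Lrrc8a, a subunit of volume-regulated anion channels, Arl8a, and S100a8, a calcium-binding protein of neutrophils. The closest to Fosl1 was Akap12, a scaffold of protein kinase A (r = 0.998), with 1891 CPM after IRI against 23.7 CPM in sham, followed by Tuba1c, Plk2, Mthfd1l and Dusp11. So high an r was common, since the group difference sets it: 1123 genes had r over 0.95 with Atf3 and 1249 with Fosl1.

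Partners outside the 10 genes changed unevenly. Of 16 listed bZIP genes (the family with a basic region and leucine zipper), 15 were tested, 9 were higher and 1 lower, against 25.1% and 24.6% of all tested genes, with a median log2 fold change of 0.92 against -0.01. With total counts as the scaling, 6 were higher and 2 lower, where 2784 of all 14606 tested genes were higher and 4912 lower. The filter was passed only through the IRI libraries by 4 of the 15, Creb5, Batf2, Batf3 and Nfe2, which lean to higher by that choice. Creb5, Batf2 and Nfe2 were among the 9 called higher, and the list median is the value of Batf3, which was not called. Creb5, a CREB-like partner of Jun, went from 0.469 ± 0.216 CPM in sham to 11.2 ± 2.04 CPM after IRI (23.3-fold, edgeR adjusted p = 5.56e-06). Of the genes that meet Maff in pairs, the small Maf gene Mafk was 2.99-fold higher and the repressor Bach1 2.70-fold higher (edgeR adjusted p = 4.32e-06 and 0.000193). Of the listed NF-E2 and NF-E2-related genes, Nfe2 passed as higher. The more abundant Nfe2l1 and Nfe2l2 did not pass (log2 fold change -0.37 and -0.17, edgeR adjusted p = 0.0105 and 0.2975). Jdp2, a Jun dimerization protein and repressor, rose 2.51-fold, and Atf2, which pairs with Jun, fell by 0.26 on the log2 scale (edgeR adjusted p = 0.00177 and 0.0055). With the replicate block, or with a covariate for animal number series (low or high numbers given to the mice by the submitters), 6 of the listed genes passed, all higher. Of all tested genes, 2870 and 3133 then passed as higher, and 2712 and 3033 as lower.

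Among 17 genes of the MAP kinase modules that lie upstream of AP-1, 5 were higher and 2 lower, where 25.1% and 24.6% of all tested genes passed, with a median log2 fold change of 0.07. This balance turned round with other scalings, to 2 higher and 5 lower with total counts and 3 higher and 4 lower with upper quartile factors. Calls over all 14606 tested genes shifted the same way, to 2784 higher and 4912 lower with total counts. With upper quartile factors they were 3092 higher and 4393 lower. Map2k3, an activator of p38, rose 4.18-fold, and Map2k4, an activator of JNK and p38, 2.90-fold (edgeR adjusted p = 1.29e-06 and 9.18e-07). Map3k7, the kinase TAK1, was 1.42-fold higher and Mapk8, the kinase JNK1, 1.30-fold higher. Map2k5 fell by 0.57 and Mapk9, the kinase JNK2, fell by 0.54 on the log2 scale (edgeR adjusted p = 0.000523 and 0.000135). These are transcript levels and say nothing of kinase activity.

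Of 6 genes for serum response factor and its cofactors, which act on CArG boxes, 4 were higher and none lower, against 25.1% and 24.6% of all tested genes. Elk3 rose 2.31-fold, Elk4 2.24-fold, Srf 1.51-fold and Mkl2 1.32-fold (edgeR adjusted p between 2.63e-05 and 0.00487). With the replicate block or when scaled by total counts 2 of the 6 passed, where 2870 and 2784 of all tested genes passed as higher. Of 10 genes that control the turnover of AP-1 messages or proteins, 5 were higher and 1 lower, against the same background, with a median log2 fold change of 0.33. Scaling by total counts or upper quartile factors gave 4 higher and 3 lower, and these scalings also moved calls over all tested genes toward lower. Zfp36, tristetraprolin, which shortens the life of messages with AU-rich elements, rose 8.52-fold from 33.4 ± 8.06 to 285 ± 66.0 CPM (edgeR adjusted p = 4.75e-06). Its relatives Zfp36l2 and Zfp36l1 were 3.16-fold and 1.88-fold higher, and Elavl1, which binds the same elements and stabilizes messages, 1.40-fold higher. Det1, part of a ubiquitin ligase for Jun, fell by 0.78 on the log2 scale (edgeR adjusted p = 0.000182).

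Of 21 listed textbook AP-1 target genes 19 were tested, and 17 were higher and none lower, against 25.1% and 24.6% of all tested genes, with a median log2 fold change of 2.55. The filter on low counts was passed only through the IRI libraries by 4 of them, Mmp3, Mmp10, Il6 and Ccl2, which lean to higher by that choice. Like the other lists, this one was chosen with earlier results of these data known. The study itself reports Il6, Hmox1, Spp1 and Tgfb1 as higher in these libraries, so the count of targets is a description only. Vegfa (log2 fold change 0.57) and Ivl (1.22) did not pass in edgeR (adjusted p = 0.0605 and 0.0175). Il6, a cytokine, had 826 counts in the IRI libraries together and 4 in the sham libraries together, which is 311-fold higher per scaled library (exact 95% interval 121 to 1144, counting error only). Mmp3, a matrix metalloproteinase, rose 29.8-fold from 0.485 ± 0.147 CPM, Timp1, an inhibitor of such enzymes, 13.6-fold from 1.53 ± 0.806 CPM, and Plaur, the urokinase receptor, 13.5-fold from 22.4 ± 4.28 CPM (edgeR adjusted p = 3.34e-06, 0.00019 and 3.7e-06). Several listed targets are also made by leukocytes or fibroblasts. Markers of macrophages and monocytes summed to 216 to 227 CPM after IRI and 53.1 to 101 CPM in sham, of which Cd14 made up 137 and 34.5 CPM on average, and 3 of 10 (Cd14, Cd68 and Itgam) passed as higher, near the background of 25.1%. Fibroblast markers summed to 237, 1590, 516 and 432 CPM in IRI replicates 1 to 4 and 177 to 312 CPM in sham, which overlapped, and 1 of 7 passed as higher. Their part in the target levels was not tested.

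**Figure D5:**
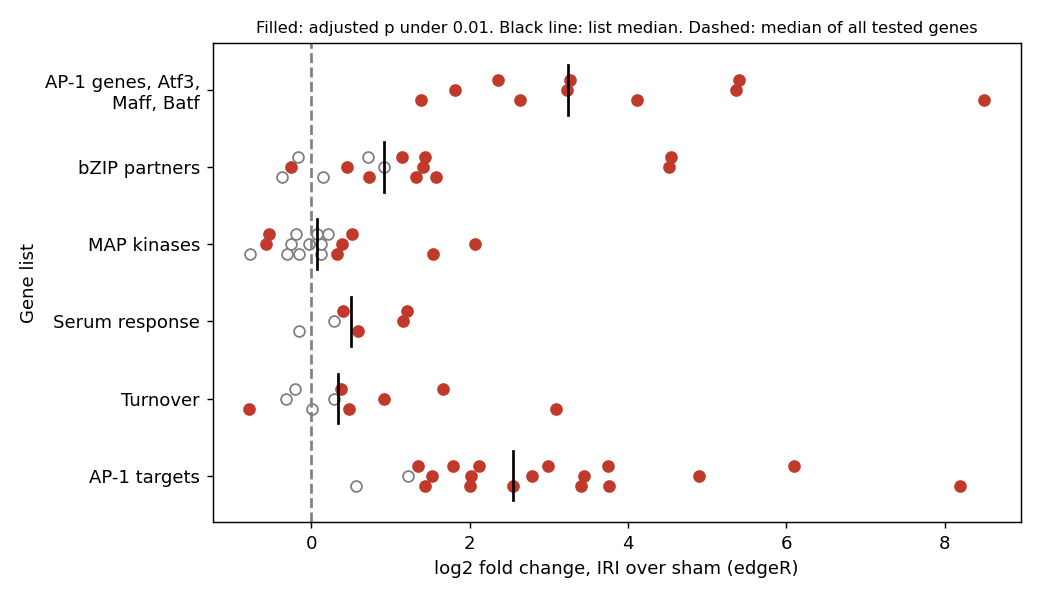
Log2 fold change of IRI over sham from edgeR for the 10 AP-1 and related genes and 5 lists of pathway genes, where each point is a gene, filled points passed the threshold of 0.01 and the black line is the list's median. The medians are 2.55 for AP-1 targets and 0.07 for MAP kinases, and the dashed line marks -0.01, the median of all tested genes.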

How the data were processed

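RNA bound to tagged ribosomes of the HoxB7 lineage was sequenced from 4 IRI and 4 sham mice. The authors aligned reads to mm10 with TopHat2 2.1.1, counted reads per gene symbol with HTSeq and deposited raw counts with no normalization, 1 set per mouse. The annotation release was not given in the sources used here, nor were the counting mode and the use of strand. Lines that name no gene (43.3% to 52.3% of all counted lines after IRI, 33.3% to 37.7% in sham) stayed out of library sizes and tests.

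The 10 genes and all gene lists were chosen with earlier results of these data known. From the deposited counts, genes were filtered with filterByExpr (minimum count 10, minimum total 15), scaled by TMM and tested in edgeR 4.0.16 (R 4.3.3) by the quasi-likelihood test, with a biological coefficient of variation of 0.206. The threshold of 0.01 on the Benjamini-Hochberg adjusted p followed the study, which used DESeq2. The voom method of limma 3.58.1 gave standard errors, and DESeq2 1.42.0 was an alternative. CPM per kb used the union of exons in GENCODE vM21 (GRCm38). Dividing by exon length assumes that reads fall evenly over a gene.

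All 10 genes were named. From each pathway list up to 4 genes in each direction were named by size of change among those past the threshold with a mean of at least 5 CPM over the 8 libraries. For Atf3 and Fosl1 the 5 most similar genes by Pearson's r were named. Genes outside these rules were named where a count, a pairing with Maff or an exon overlap needed them, after their values had been seen. Alternatives were other scalings, filters and tools, a threshold of 0.05, a replicate block, a covariate for animal number series, other lengths and leaving out single libraries. The series is read from numbers the submitters gave the animals (low numbers for 3 IRI mice and 1 sham mouse, high numbers for the other 1 and 3) and served only as a candidate batch. RNA with an integrity number of at least 6.8 was used by the authors.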

Additional observations from a re-analysis of the deposited data

Results flagged for a closer look

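In 20 groups of 4 libraries (10 genes, IRI and sham), 2 libraries stood apart from the other 3 by Dixon's criterion, where chance would give about 1 in 20. Fos in sham replicate 1 was at 87.2 CPM, and the nearest sham library was at 13.3 CPM. Atf3 in sham replicate 3 was at 13.02 CPM, and the nearest sham library was at 5.95 CPM.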

How the results depend on the processing

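The 10 genes were higher after IRI under every alternative run, and 9 or 10 passed the threshold in each. With the stricter filter (at least 1 CPM in 4 libraries) Batf was not tested. The labels do not say that replicate numbers pair the mice. The correlation of deviations between same-numbered mice was -0.07, -0.53, -0.36 and -0.37, which cannot settle whether they were paired. With the replicate block all 10 genes passed, and 2870 and 2712 of all genes were called higher and lower, against 3667 and 3595. The block left 6 of the bZIP partners and 2 of the serum response genes called, against 10 and 4. A covariate for animal number series left all 10 genes and 6 partners called. Within a series 1 group has a single mouse, so no test was run there. Scaling by total counts moved the median log2 fold change of all genes to -0.20 (2784 higher, 4912 lower) and left 2 serum response genes called, and upper quartile factors moved it to -0.13 (3092 higher, 4393 lower).

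Leaving out 1 library gave 9 to 10 of the 10 genes called, 6 to 9 of the partners, and a log2 fold change of Fos between 2.89 and 4.77. Without both sham replicates 1 and 3, an alternative chosen after seeing the data, the log2 fold change of Fos was 5.04 (32.9-fold) and that of Batf 1.54 with an edgeR adjusted p of 0.0191, so that 9 genes were called. Shares of the families moved with the length used. With counts not divided by length, Fos, Fosb, Fosl1 and Fosl2 were 23.6%, 10.2%, 7.59% and 58.7% of the Fos family after IRI, and with the longest transcript 41.4%, 10.005%, 15.2% and 33.4%. Jun and Jund were 43.4% and 29.6% of the Jun family after IRI and 22.6% and 56.7% in sham with counts not divided by length. With the longest transcript Jund was 38.4% after IRI and Junb 21.9% in sham. Counts of 1 to 16 per sham library limit Fosl1, and 6 to 19 per library limit Batf.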

Other observations

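To see how often a single sham library stood far above the other 3, genes with a sham mean of at least 5 CPM were searched for a level at least 4 times the highest of the other sham libraries, a rule chosen after the Fos values had been seen. Of 11120 genes, 2 met it in sham replicate 1, none in sham replicate 2, 2 in sham replicate 3 and none in sham replicate 4. In sham replicate 1 they were Fos and Hsd3b2, a steroid dehydrogenase gene at 133 CPM against at most 28.5 CPM in the others. In sham replicate 3 they were Cyp2a5, a cytochrome P450 gene at 162 CPM against at most 19.96 CPM, and Greb1, an estrogen-regulated gene at 80.4 CPM against at most 10.8 CPM. No other AP-1 or related gene reached that ratio in any sham library.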
